A study of Mus musculus with 20 samples.

Results

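The cytosolic ribosomal protein genes encode the proteins of the ribosome that works in the cytoplasm. They were taken by symbol: Rpl or Rps followed by a digit, plus Rplp0, Rplp1, Rplp2 and Rpsa. Left out were the S6 kinases, pseudogenes and symbols ending in the letter l. The rule found 83 of the 21883 protein-coding genes of the GRCm38 annotation. Of these, 46 encode proteins of the large subunit and 31 encode proteins of the small subunit. The other 6 carry a related symbol that the rule also takes: Rpl22l1, Rpl7l1, Rpl37rt, Rps19bp1, Rps23rg1 and Rps27rt.

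The study measured acetylation of histone H3 at lysine 27 (H3K27ac), which marks promoters and enhancers in use, by chromatin immunoprecipitation and sequencing. All cells were RAW264.7, a mouse macrophage-like line transformed by Abelson leukaemia virus, which the labels call monocyte-derived and give bone marrow as its source. RANKL, the cytokine that turns macrophage precursors into osteoclasts, was given at 50 ng/ml for 4 h, alone or with 500 nM I-BET. I-BET blocks the BET proteins, which bind acetylated histones, and it was also given alone. The deposited peak lists came from 3 untreated, 3 RANKL, 3 RANKL+I-BET and 1 I-BET library, which is numbered 3. The line carries no engineered allele in the labels, no time is given for the untreated cells, and every group came from this 1 line. The labels do not say whether libraries of a group came from separate cultures, so the spread between them, and any p-value that rests on it, may be technical.

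Ribosomal proteins are made in equal amounts from many scattered genes, among the most strongly transcribed genes of any growing cell. Their messengers usually begin with a cytosine and a run of pyrimidines, the 5′ terminal oligopyrimidine (TOP) tract, through which the mTOR pathway sets their translation. Several ribosomal proteins also act outside the ribosome, and loss of 1 copy of some of them causes Diamond-Blackfan anaemia in people.

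The promoter sequence of 63 of the 83 members was found in RefSeq (GRCm38.p6). The first set of sequences shows the start region of 8 of them, from 60 bases before the RefSeq start to 15 bases from it on. They show a pyrimidine run in members with wide peaks (Rps9, Rpl13a, Rpl18), a narrow peak (Rps24) and intermediate ones (Rps6, Rps26). Capitals mark the longest run of at least 5 pyrimidines at the start, and Rplp0 and Rps19 had no such run there. Transcript starts were not measured, so neither a run nor its absence at the RefSeq start tells whether the messenger carries a TOP tract. The windows lie at chr4:86857353-86857427 (Rps6, minus strand), chr7:45128731-45128805 (Rpl13a, minus), chr7:3703981-3704055 (Rps9, plus), chr7:45718011-45718085 (Rpl18, plus), chr14:24490618-24490692 (Rps24, plus), chr10:128626492-128626566 (Rps26, minus), chr5:115559407-115559481 (Rplp0, plus) and chr7:24884532-24884606 (Rps19, plus).
Rps6: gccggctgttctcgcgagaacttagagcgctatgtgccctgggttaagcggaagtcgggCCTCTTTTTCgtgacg
Rpl13a: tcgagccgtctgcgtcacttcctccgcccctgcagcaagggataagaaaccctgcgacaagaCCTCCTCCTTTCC
Rps9: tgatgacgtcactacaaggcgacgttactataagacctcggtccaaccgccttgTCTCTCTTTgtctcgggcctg
Rpl18: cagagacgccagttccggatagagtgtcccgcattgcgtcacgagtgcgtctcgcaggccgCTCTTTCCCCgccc
Rps24: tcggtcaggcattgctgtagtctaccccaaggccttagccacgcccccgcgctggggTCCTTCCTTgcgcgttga
Rps26: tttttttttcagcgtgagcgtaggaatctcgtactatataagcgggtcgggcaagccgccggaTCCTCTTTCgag
Rplp0: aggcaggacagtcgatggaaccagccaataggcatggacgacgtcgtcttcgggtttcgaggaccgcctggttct
Rps19: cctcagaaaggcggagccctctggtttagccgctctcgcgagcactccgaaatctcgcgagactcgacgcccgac

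The sequences show how closely the run sits on the RefSeq start. In Rps6 it begins 1 base before the start and is 10 bases long. In Rpl13a it is at least 13 bases long, up to the end of the window printed. A search on the sense strand took a C followed by 5 pyrimidines, lying wholly within 5 bases before to 10 after the start. Such a run was present in 27 of 63 members (42.9%). The same search found it in 1605 of 17491 genes with a promoter entry (9.18%). A C exactly at the listed start followed by 4 pyrimidines was present in 13 members (20.6%) and in 2.16% of all genes.

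A second set shows the motif CCGGAAG, which holds the GGAA core bound by ETS-family factors, in capitals with 15 bases on either side. The windows lie at chr10:128549203-128549239 (Rpl41, minus strand), chr4:86857437-86857473 (Rps6, minus), chr10:128626699-128626735 (Rps26, minus), chr7:141447528-141447564 (Rplp2, plus) and chr9:120127563-120127599 (Rpsa, plus). In Rplp2 and Rpsa the motif is on the other strand and reads CTTCCGG.
Rpl41: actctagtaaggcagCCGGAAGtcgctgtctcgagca
Rps6: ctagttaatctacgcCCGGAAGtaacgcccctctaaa
Rps26: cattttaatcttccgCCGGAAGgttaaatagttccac
Rplp2: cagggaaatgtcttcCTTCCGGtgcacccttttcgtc
Rpsa: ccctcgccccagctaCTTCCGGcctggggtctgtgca

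Over both strands of the 300 bases from 250 before to 50 after the start, CCGGAAG was found in 23 of 63 members (36.5%) and in 11.9% of all 17491 promoters. AAGATGG, part of the site of YY1, was found in 15.9% of members and 6.36% of all promoters. GGGCGG, the core of the Sp1 site, was found in 58.7% and 46.3%. The TATA motif TATAAA was found in 11.1% and 13.3%, and CCAAT, the motif bound by NF-Y, in 31.7% and 39.1%. These matches describe letters and not binding. The median GC content was 58.0% in members and 56.3% in all promoters.

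The lists differed widely in length, which bears on every value below. RANKL 2 held 141905 peaks covering 184.56 Mb, and RANKL+I-BET 2 held 6041 peaks covering 3.44 Mb. The other 8 lists held 9893 to 17794 peaks covering 7.79 to 25.91 Mb. Of 12 macrophage markers such as Csf1r, Spi1 and Cd68, 7 to 12 had a gene-end peak in each library. Of 12 lymphocyte markers 0 to 2 had one, and of 12 fibroblast and osteoblast markers and 12 markers of liver, muscle, nerve, islet and skin none had, except in RANKL 2. There 12, 6 and 10 of them had a peak. RANKL 2 and RANKL+I-BET 2 therefore stand apart, and results are given with and without the libraries numbered 2. The lists hold no counts, so sequencing depth is unknown and no counting error can be given.

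In the lists as deposited, weak peaks included, H3K27ac peaks were present at nearly all ribosomal protein genes in every condition. A gene-end peak, meaning a peak that overlaps the window from 1 kb before to 1 kb after either end of a gene, was found for 76, 72 and 78 of the 83 members in untreated 1, 2 and 3. It was found for 77, 80 and 79 members in RANKL 1, 2 and 3, and for 79, 68 and 78 in RANKL+I-BET 1, 2 and 3. The I-BET library had 78. The groups overlapped, and the lowest and highest counts were those of RANKL+I-BET 2 and RANKL 2. Group means were 75.3 ± 3.06 (SD, n = 3) for untreated, 78.7 ± 1.53 (SD, n = 3) for RANKL and 75.0 ± 6.08 (SD, n = 3) for RANKL+I-BET. Without the libraries numbered 2 they were 77.0, 78.0 and 78.5 (n = 2 each). With peaks of -log10 q of at least 5, only 4, 1 and 15 members had a peak untreated and 19, 29 and 26 with RANKL. The counts were 22, 23 and 19 with RANKL+I-BET and 11 with I-BET. Over all genes the shares then ran from 0.5% in untreated 2 to 29.75% in RANKL 2. With every list cut to the covered length of the shortest, the members ran from 3 in RANKL 2 to 68 in RANKL+I-BET 2. Over all genes the shares there were 1.74% and 17.3%.

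In the lists as deposited, the share of all protein-coding genes with a gene-end peak moved far more between libraries. It was 32.5%, 27.03% and 37.6% in the untreated libraries, 41.5%, 74.0% and 41.7% in the RANKL libraries, 41.6%, 17.3% and 36.7% in the RANKL+I-BET libraries and 34.8% in the I-BET library. In RANKL+I-BET 2, the shortest list, 81.9% of members had a peak, beside 46.2% of the 78 mitochondrial ribosomal protein genes. Those genes encode the separate ribosome of mitochondria, and 36 of 78 had a peak there against 51 to 77 in the other libraries. Of 24 translation factors and related genes whose messengers are known to carry a TOP tract, such as Eef1a1, Eef2 and Pabpc1, 17 had a peak in RANKL+I-BET 2 and 21 to 24 elsewhere.

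**Figure D1:**
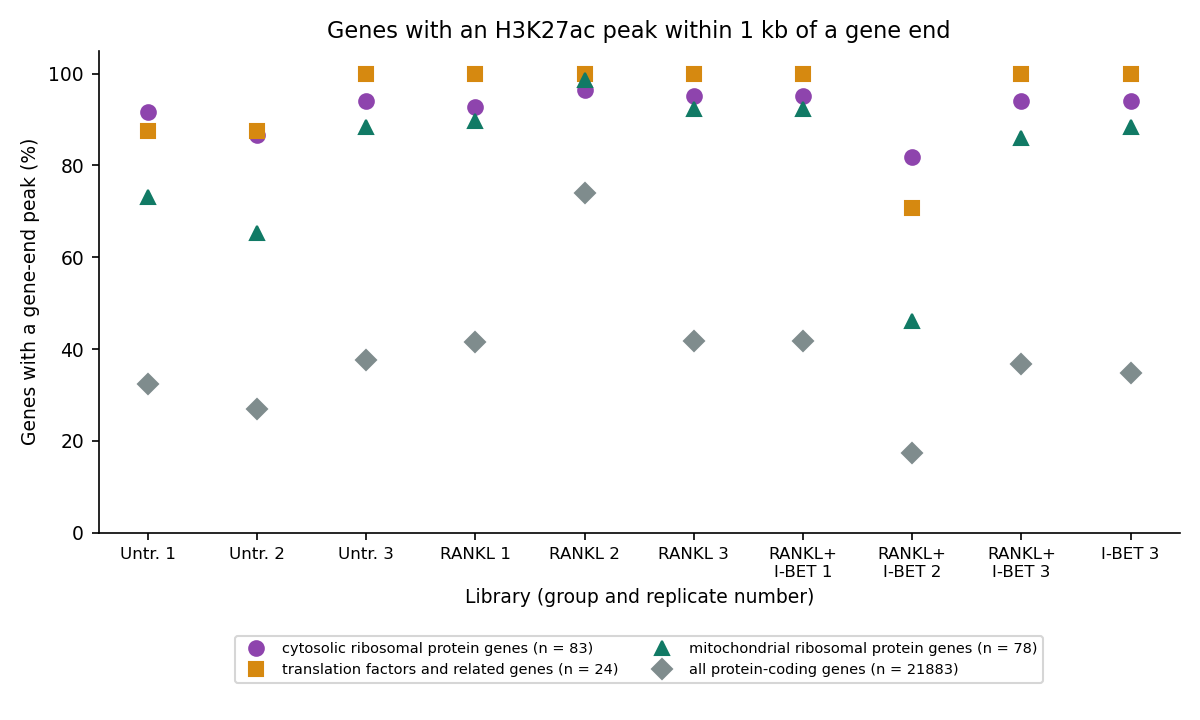
Percent of genes (vertical axis, from 0) with an H3K27ac peak within 1 kb of a gene end in each of the 10 libraries (horizontal axis), for 83 cytosolic ribosomal protein genes, 24 translation factors and related genes, 78 mitochondrial ribosomal protein genes and all 21883 genes. In the lists as deposited, the cytosolic ribosomal protein genes sit between 81.9% and 96.4% in every library. All genes range from 17.3% in RANKL+I-BET 2 to 74.0% in RANKL 2.

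Counted gene by gene, 64 of the 83 members (77.1%) had a gene-end peak in all 10 deposited lists. The same was true of 13.55% of all genes, of 11.6% of the 7925 genes no longer than 10 kb, of 28 of 78 mitochondrial ribosomal protein genes (35.9%) and of 17 of 24 translation factors (70.8%). Members are short, with a median length of 3.18 kb against 17.17 kb over all genes. The windows at the 2 ends therefore take in a larger part of a typical member. A further 10 members had a peak in 9 lists, 2 in 8 lists, and 1 each in 7, 6, 5 and 1 lists. These last were Rpl19, Rpl22, Rps2 and Rpl37rt, and 3 members had none.

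Several members with few or no gene-end peaks had a peak further inside the gene. Rpl17, a protein of the large subunit, had no gene-end peak in any list but had a peak inside the gene in 10 of 10. Rps2, a protein near the entry channel for messengers, had a gene-end peak in 5 lists and a peak anywhere in the gene or 1 kb around it in 8. The RefSeq start of Rps2 lies 1942 bp inside its gene record, and those of Rpl19 and Rpl18 lie 4707 and 2604 bp inside theirs. Rpl19 went from 7 lists to 10 on the same count, and Rpl22, whose product also binds RNA outside the ribosome, from 6 to 9. Rpl37rt had a peak in RANKL 2 only, Rps23rg1 and Rps27rt had none at a gene end, and Rps23rg1 had 1 when its whole gene was counted. In 25 members the peak of RANKL 3 also reached the end of another gene, such as Zc3h10 beside Rpl41 and Slc25a38 beside Rpsa, and acetylation of the pair cannot be told apart there.

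The peak at a ribosomal protein gene was usually wider than that at other genes. The median width of the members' gene-end peak was 1062, 943.5 and 1860.5 bp in untreated 1, 2 and 3. It was 1671, 3253.5 and 2016 bp in the RANKL libraries, 1737, 730 and 1773.5 bp in the RANKL+I-BET libraries and 1734 bp in the I-BET library. Over all genes with such a peak the medians were 832, 647 and 1173 bp, then 1244, 2024 and 1325.5 bp, then 1216, 470.5 and 1229 bp, and 1175 bp with I-BET. In each of the 10 libraries the members' median was above that of all genes, and 57.9% to 85.9% of members with a peak were wider than the all-gene median of their library. Ranked within each library, the median member lay at the 61.5th to the 76.8th percentile of width. The mitochondrial ribosomal protein genes lay at the 34.5th to the 50.1st, and the 24 translation factors at the 54.6th to the 84.0th.

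**Figure D2:**
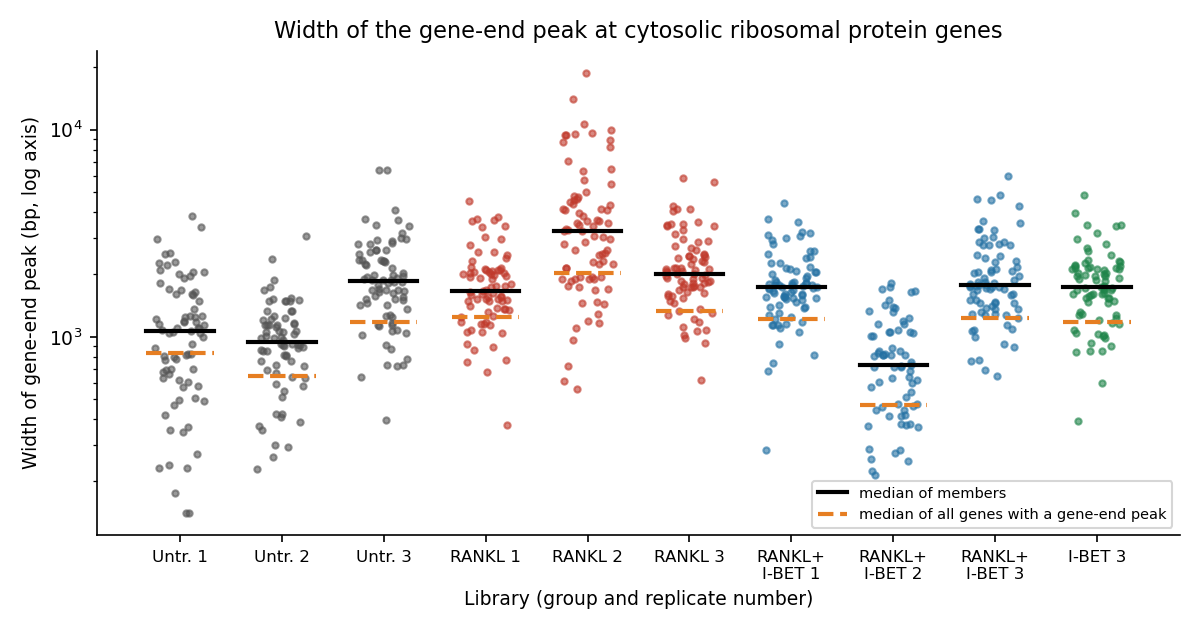
Width in bp (log axis) of the gene-end peak of each cytosolic ribosomal protein gene (points) in the 10 libraries, with the median of the members (black bar) and of all genes with a gene-end peak (dashed bar). The black bar lies above the dashed bar in each library, and members reach from 141 bp in untreated 1 to 18841 bp in RANKL 2.

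Height did not follow width. Column 7 of the lists, the authors' fold enrichment of each peak, had a median of 2.56, 2.45 and 2.48 at members in the untreated libraries, and 3.17, 1.98 and 2.54 in the RANKL libraries. It was 3.504, 5.02 and 2.45 in the RANKL+I-BET libraries and 2.54 with I-BET. Within its own list the median member lay between the 43.7th and the 54.9th percentile of fold in 9 libraries, near the middle of all genes with a peak. In RANKL+I-BET 2 it lay at the 72.2nd. This fold ranks peaks within 1 list and is not compared between lists.

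Large- and small-subunit genes had similar values. In RANKL 3 the median width was 2154 bp over 45 large-subunit genes with a peak and 1933 bp over 31 small-subunit genes. In untreated 3 the medians were 1952 and 1844 bp, and in untreated 2 they were 906.5 and 1063.5 bp, so the order was not the same in every library. The genes of related symbol with a peak had a median of 1019 bp over 3 genes in RANKL 3, below both classes, and of 4661 bp over 4 genes in RANKL 2, above both. Gene length bore little relation to width: Pearson's r between log2 length and log2 width ran from -0.15 to 0.21 over the libraries (66 to 76 subunit genes each, from 1 library at a time).

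Many ribosomal protein genes carry small nucleolar RNAs, guides for chemical modification of ribosomal RNA, within their introns. Of the 30 subunit genes with such a gene inside, 29 had a peak in RANKL 3, with a median width of 2251 bp. The 47 without one all had a peak there, with a median of 1996 bp. Over the genes with a peak, the order was the same in all 10 libraries. Examples were 1979 and 1683.5 bp in untreated 3 and 1145 and 854 bp in untreated 1. In RANKL+I-BET 2 the medians were 813.5 and 697.5 bp, over 26 and 40 genes. This is a description, and the genes differ in other ways that were not examined.

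Over the 6 libraries numbered 1 and 3 of the replicated groups, 75 members had a peak in all 6, and their median widths ran from 707 to 4129.5 bp, with 1737.5 bp in the middle. The widest were Rpl18 (4129.5 bp), Rps9 (3859.5 bp), Rps27a (3585.5 bp), Rpl13a (3506.5 bp) and Rpl7a (3240 bp). Rps27a encodes a fusion of ubiquitin and a ribosomal protein, and Rpl13a encodes a protein known to leave the ribosome and silence inflammatory messengers in macrophages. The narrowest were Rpl19 (707 bp), Rps19bp1 (883 bp), Rpl6 (944 bp), Rps24 (971 bp) and Rps20 (1027.5 bp). The gene-end peak of Rpl19 lies away from its RefSeq start, and with its whole gene counted, an alternative chosen after its value was seen, the median was 1717 bp. The other 9 named here kept their medians on that count. In the start sequences printed above, a pyrimidine run occurs at both ends of this order, in Rps9, Rpl13a and Rpl18 and in Rps24. Of these 75 members 56 had a promoter entry, and the median of their widths was 1911 bp for the 23 with a pyrimidine run near the start and 1692.5 bp for the 33 without. It was 1736.25 bp over 22 members with CCGGAAG and 1754 bp over 34 without, and 2179.5 bp over 18 with CCAAT and 1697.25 bp over 38 without.

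**Figure D3:**
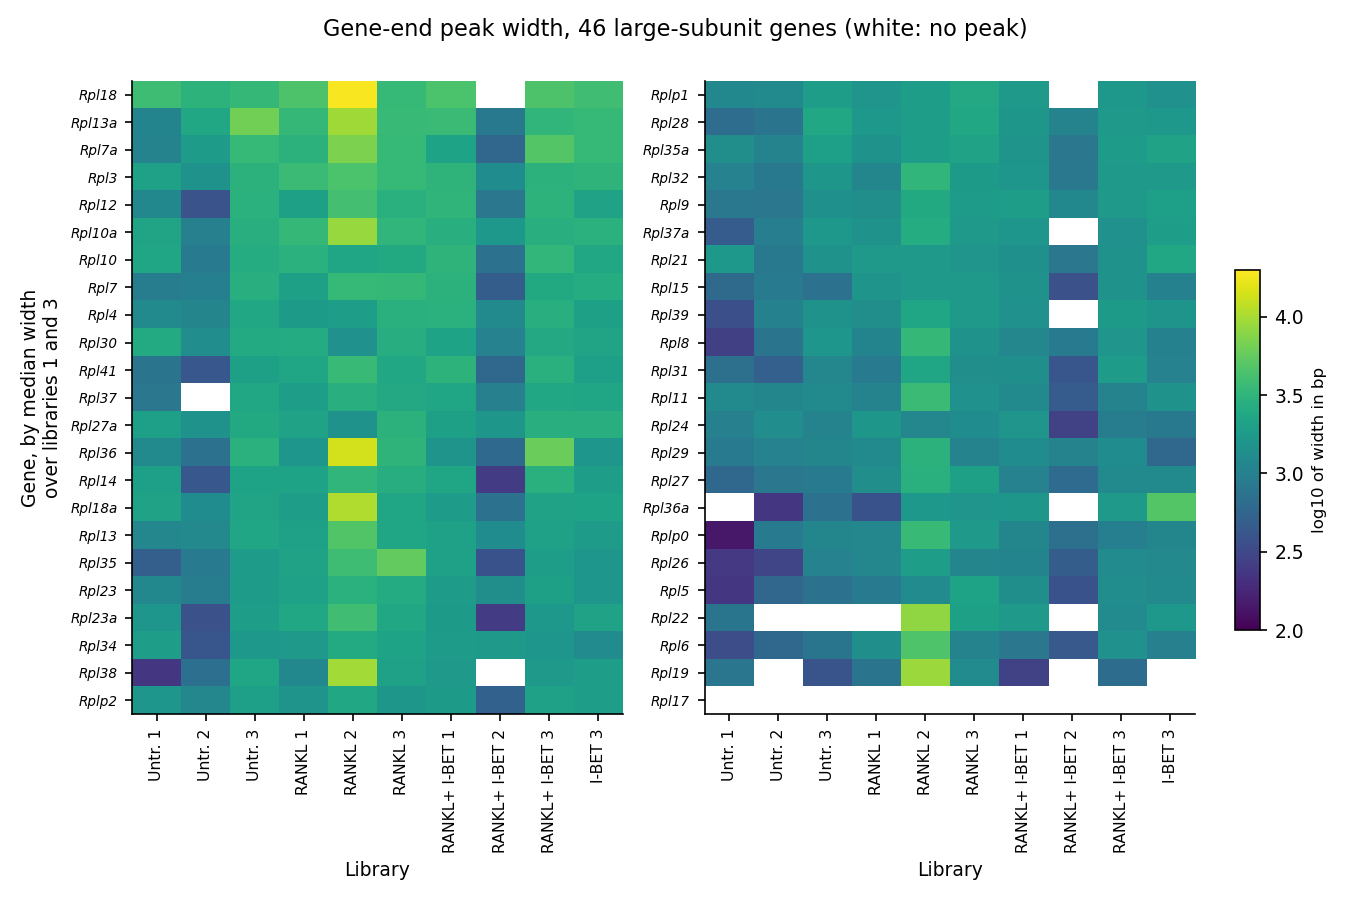
Width of the gene-end peak (colour, log10 of bp; white for no peak) for each of the 46 large-subunit genes (rows, ordered by median width over the libraries numbered 1 and 3 of the replicated groups) in the 10 libraries (columns). Rpl18 heads the order, Rpl17 has no gene-end peak in any list, and RANKL 2 and RANKL+I-BET 2 show as a wide and a narrow column.

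The acetylated stretch lay mostly downstream of the start, over the beginning of the gene. In untreated 3 the median peak of the 59 members with a peak within 1 kb of their RefSeq start ran from position -513 to 1248 bp, counted from the start with downstream positive. Over all genes it ran from -447 to 691 bp, so the difference lay on the downstream side. In RANKL 3 the median member's peak ended 1458.5 bp after the start and that of all genes 753 bp after, and in RANKL+I-BET 3 the ends were at 1299.5 and 720.5 bp. With I-BET alone they were at 1222 and 695 bp. Over the 10 libraries, 75.9% to 93.3% of members extended further downstream than upstream, against 61.7% to 69.2% of all genes. In RANKL+I-BET 2 the peaks of 33 of 54 members (61.1%) began only after the start, and the members' median left edge was 77.5 bp downstream of it. Over all genes the share was 46.3% there, and over members it was 48.3% in untreated 1 and 40.7% in untreated 2.

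**Figure D4:**
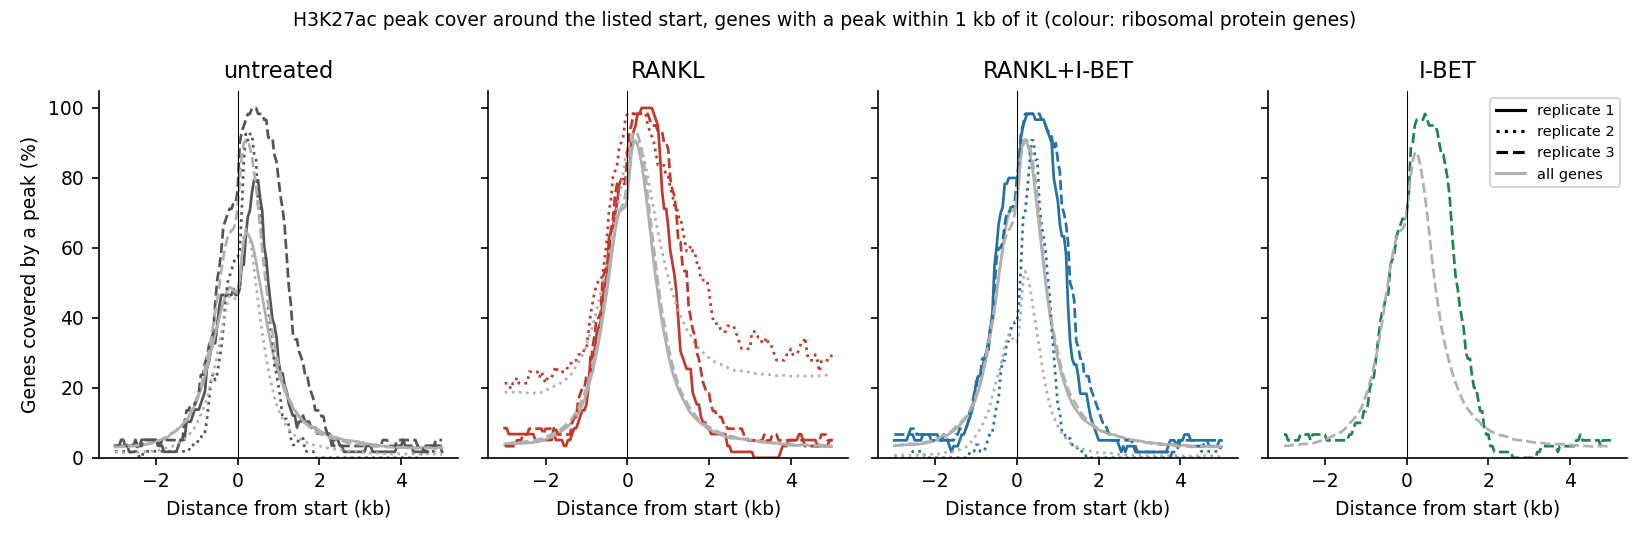
Percent of genes covered by a peak (vertical axis) by distance from the RefSeq start in kb (horizontal axis), among genes with a peak within 1 kb of it, by group; colours are ribosomal protein genes, grey is all genes and line style is the replicate number. In each library the coloured curve stays high further downstream than the grey curve of the same style, as in RANKL 3, where the median ends were 1458.5 and 753 bp.

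RANKL against untreated asks whether 4 h of the osteoclast signal moved acetylation at these genes. No member had a peak in all 3 libraries of 1 group and in none of the other. Over all genes 1.49% had a peak in all RANKL and no untreated library, and 0% the reverse. Without the libraries numbered 2 there was again no such member (1.8% and 0.032% of all genes). Member widths that did not overlap between the groups, wider with RANKL, were counted in 21 of 83 (25.3%), beside 15.1% of all genes. Among genes with a peak in all 6 lists the order of the shares was the opposite: 19 of 70 members (27.1%) and 32.3% of all genes. No member was narrower with RANKL without overlap (0.00914% of all genes). With 3 libraries against 3, an exact permutation test of 1 gene cannot go below p = 0.1, so none of these is a call by test.

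The 21 comprised 13 large-subunit genes (Rplp0, Rpl3, Rpl5, Rpl6, Rpl10a, Rpl14, Rpl15, Rpl23, Rpl23a, Rpl26, Rpl27, Rpl35 and Rpl41), 7 small-subunit genes (among them Rpsa, Rps3, Rps6, Rps10, Rps16 and Rps19) and Rps19bp1. Without the libraries numbered 2 there were 23 of 83 (27.7%; 17.7% of all genes), and among genes with a peak in all 4 lists 23 of 75 (30.7%; 39.9% of all genes). Then Rps7 and Rps26 were narrower with RANKL (0.914% of all genes). The count depended on single libraries: without untreated 3 it was 56 (28.7% of all genes) and without RANKL 1 it was 43 (24% of all genes). Without untreated 2, Rps26 alone was narrower with RANKL (0.238% of all genes). It also depended on weak peaks: with peaks of -log10 q of at least 5 the wider count was 2 (1.89% of all genes). With every list reduced to 1 covered length it was 0 (0.032%), and Rps18 alone was narrower (0.302%).

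Taken by replicate number, the ratio of RANKL to untreated width had a median over members of 1.72 in libraries 1, 3.49 in libraries 2 and 1.11 in libraries 3. Over all genes with a peak in both lists it was 1.56, 4.26 and 1.15. The member ratio was above that of all genes in libraries 1 and below it in libraries 2 and 3. Members were wider with RANKL in 63 of 75 (84.0%), 69 of 72 (95.8%) and 59 of 78 (75.6%) cases, beside 80.5%, 97.1% and 71.9% of all genes.

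Among the stalk genes, whose acidic proteins recruit elongation factors to the ribosome, Rplp0 had widths of 141, 890 and 1146 bp untreated, 1154, 3539 and 1732 bp with RANKL, 1137, 711 and 992 bp with RANKL+I-BET and 1148 bp with I-BET. Every RANKL value was above every untreated value, but RANKL 1 exceeded untreated 3 by only a few base pairs. Rplp1 had 1177, 1229 and 1960 bp untreated, 1571, 1935 and 2453 bp with RANKL, 1737 bp, no peak and 1684 bp with RANKL+I-BET and 1451 bp with I-BET. Rplp2 had 1610, 1171 and 1979 bp, then 1554, 2335 and 1644 bp, then 1807, 513 and 2078 bp, and 1923 bp with I-BET. For Rplp1 and Rplp2 the groups overlapped in each comparison.

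Rpl5 and Rpl11 encode proteins that join the 5S ribosomal RNA and, when ribosome assembly fails, bind Mdm2. Rpl5 had the narrow widths of 232, 576 and 731 bp untreated, and 861, 1286 and 2147 bp with RANKL. It had 1384, 379 and 1355 bp with RANKL+I-BET and 1272 bp with I-BET, so the RANKL+I-BET values spread over both other groups. Rpl11 had 1247, 1146 and 1257 bp untreated, 1058, 3682 and 1462 bp with RANKL, 1248, 465 and 1063 bp with RANKL+I-BET and 1489 bp with I-BET. Its untreated values lay close together and overlapped both other groups.

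Rpl3, which encodes a core protein at the peptidyl transferase centre, had 2065, 1491 and 2985 bp untreated and 3681, 4487 and 3493 bp with RANKL. With RANKL+I-BET it had 3161, 1316 and 3003 bp, below all RANKL values, and 3165 bp with I-BET. Rpl41, the gene of the smallest ribosomal protein, had 769, 424 and 2042 bp untreated, 2319, 3526 and 2415 bp with RANKL, 3081, 596 and 2859 bp with RANKL+I-BET and 1992 bp with I-BET. In libraries 1 and 3 it was wider with RANKL+I-BET than with RANKL, and in libraries 2 it was the reverse. Rpl10, an X-linked gene whose protein joins the subunit last, had 2282, 864 and 2636 bp, then 2967, 2242 and 2481 bp, then 3112, 718 and 3304 bp, and 2342 bp with I-BET. The groups overlapped in all 3 comparisons.

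Rpl13a had 1099, 2364 and 6418 bp untreated, 3436, 9412 and 3577 bp with RANKL, 3701, 855 and 3269 bp with RANKL+I-BET and 3466 bp with I-BET. The groups overlapped. Rpl22 had a gene-end peak of 777 bp in untreated 1 only, of 8280 and 2016 bp in RANKL 2 and 3, of 1719 and 1295 bp in RANKL+I-BET 1 and 3 and of 1691 bp with I-BET. It therefore had a peak in libraries of each group, but in no replicated group in all 3 libraries.

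**Figure D5:**
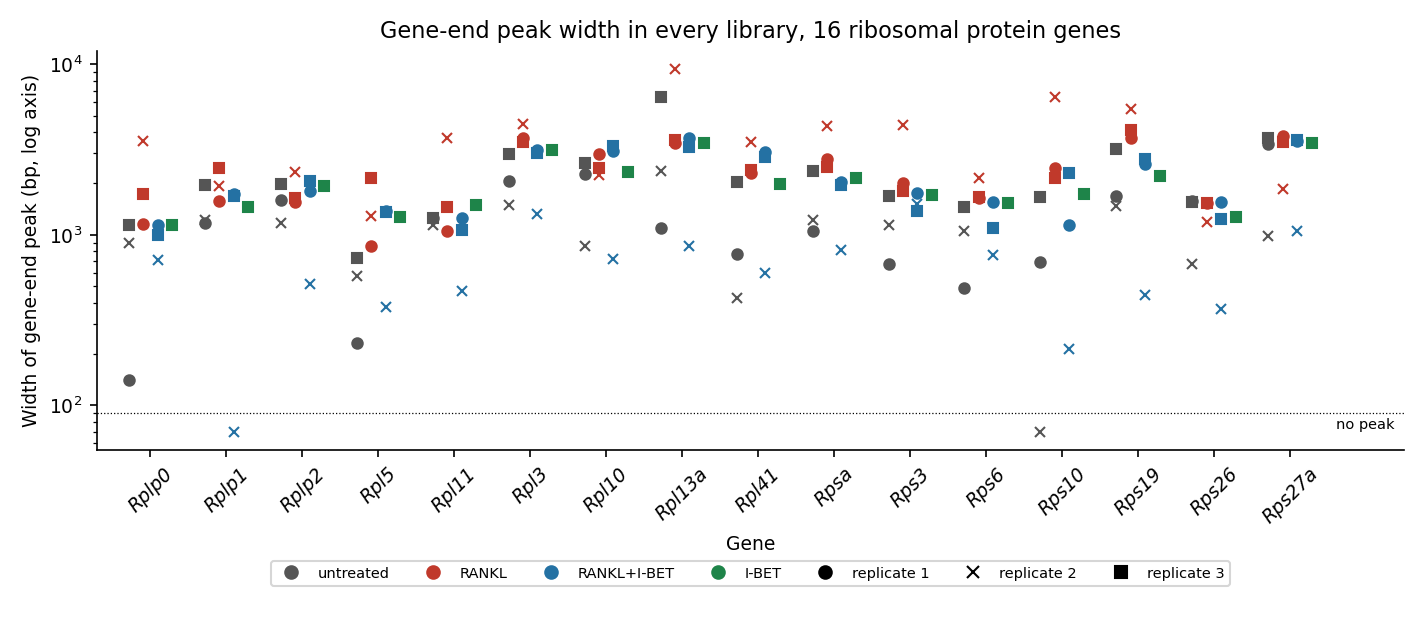
Width of the gene-end peak in bp (log axis) for 16 ribosomal protein genes (horizontal axis) in every library; colour is the group, marker shape is the replicate number, and marks under the dotted line are libraries with no peak. The untreated values of Rpl5 and Rpl41 lie below all their RANKL values, while those of Rpl10 and Rps27a overlap with them.

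Of the small-subunit genes, Rpsa encodes a ribosomal protein also known as a laminin receptor. It had 1057, 1214 and 2353 bp untreated, 2772, 4342 and 2513 bp with RANKL, 2048, 813 and 1960 bp with RANKL+I-BET and 2160 bp with I-BET. The RANKL values were above all values of both other groups. Rps3, which encodes a protein at the messenger entry site, had 677, 1137 and 1698 bp, then 2025, 4391 and 1811 bp, then 1747, 1510 and 1378 bp, and 1716 bp with I-BET. Here too the RANKL values were above those of both other groups.

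Rps6, the substrate of the S6 kinases, had 487, 1059 and 1463 bp untreated, 1635, 2156 and 1673 bp with RANKL, 1557, 757 and 1095 bp with RANKL+I-BET and 1538 bp with I-BET. Rps19, the gene most often affected in Diamond-Blackfan anaemia, had 1698, 1482 and 3185 bp, then 3720, 5483 and 4136 bp, then 2592, 445 and 2768 bp, and 2220 bp with I-BET. In both genes the 3 RANKL values lay above those of the other groups. The 9 members listed as Diamond-Blackfan genes (among them Rps19, Rpl5, Rpl11, Rpl35a and Rps26) had a median width of 1514, 2504 and 1735 bp with RANKL and 1247, 892 and 1556 bp untreated, over those with a peak. Of these 9, only Rps10 in untreated 2 lacked a gene-end peak in any list.

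Rps26 had 1588, 672 and 1556 bp untreated, 1526, 1196 and 1535 bp with RANKL, 1548, 365 and 1237 bp with RANKL+I-BET and 1269 bp with I-BET. Its untreated and RANKL values in libraries 1 and 3 lay close together, and its RANKL 2 value was the lowest of its group. Rps27a also had its lowest RANKL value in RANKL 2, with 3391, 987 and 3691 bp, then 3797, 1854 and 3523 bp, then 3567, 1053 and 3604 bp, and 3454 bp with I-BET. Rps4x, the X-linked small-subunit gene, had 141 bp, no peak and 1780 bp untreated, 1998, 560 and 930 bp with RANKL, 1668, 684 and 1077 bp with RANKL+I-BET and 1324 bp with I-BET. The groups overlapped for each of these 3 genes.

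RANKL+I-BET against RANKL asks what the inhibitor changed in cells given RANKL. No member had a peak in all libraries of 1 group and none of the other (0% and 0.553% of all genes, gained and lost), nor without the libraries numbered 2 (0.0274% and 0.567%). Widths were narrower with the inhibitor, with no overlap, in 18 of 83 members (21.7%), beside 8.51% of all genes, and among genes with a peak in all 6 lists in 16 of 68 (23.5%), beside 15.8%. The 18 were 10 large-subunit genes (Rplp0, Rpl3, Rpl10a, Rpl15, Rpl19, Rpl21, Rpl23, Rpl23a, Rpl27 and Rpl35), 7 small-subunit genes (Rpsa, Rps3, Rps6, Rps14, Rps16, Rps19 and Rps28) and Rps19bp1. With its whole gene counted, Rpl19 overlapped between the groups. None was wider (0.00457% of all genes). As before, 3 against 3 allows no p under 0.1 for a gene, and RANKL+I-BET 2 is the shortest list.

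Without the libraries numbered 2, 19 of 83 members were narrower with the inhibitor (22.9%; 9.9% of all genes), and 19 of 77 with a peak in all 4 lists (24.7%; 22.5% of all genes). Then 9 members were wider (10.8%; 3.85% of all genes), among them Rpl10, Rpl12, Rpl29, Rpl31, Rpl36a, Rpl41, Rplp2 and Rps7. Among genes with a peak in all 4 lists these 9 were 11.7% of members, beside 10.3% of all genes, so both shares lay near those of the genome. Leaving out RANKL 1 raised the narrower count to 41 (17.5% of all genes), and leaving out RANKL+I-BET 3 raised it to 28 (13.2% of all genes). With a -log10 q of at least 5 it was 1 (1.54% of all genes), and at 1 covered length 0 (0.032%). Leaving out RANKL+I-BET 2 alone made Rpl10 the 1 member wider with the inhibitor (1.07% of all genes). The median ratio of RANKL+I-BET to RANKL width was 1.01 in libraries 1, 0.235 in libraries 2 and 0.905 in libraries 3, beside 0.996, 0.168 and 0.900 over all genes.

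RANKL+I-BET against untreated asks how far the combined treatment lay from the starting state. No member was wider (0.26% of all genes) or narrower (0.0868%) without overlap, and none had a peak in all libraries of 1 group only (0.0366% gained and 0.0137% lost over all genes). Without the libraries numbered 2 there was again none of the latter (0.731% and 0.064%). Then 22 members were wider (26.5%; 13.1% of all genes), and 19 of 75 among those with a peak in all 4 lists (25.3%; 33.2% of all genes). Rpl21, Rpl30, Rps26 and Rps28 were narrower (1.44% of all genes). Leaving out RANKL+I-BET 2 alone gave the same count of 22 (12.5% of all genes), and leaving out untreated 3 gave 13 (1.9% of all genes). At 1 covered length Rpl4 alone was wider (0.238% of all genes). The narrower count was 4 without untreated 2 (1.43% of all genes) and 2 without RANKL+I-BET 1 (1.03%). The median ratio of widths was 1.63, 0.814 and 1.01 in libraries 1, 2 and 3, beside 1.54, 0.684 and 1.04 over all genes.

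I-BET alone has 1 library, so its values carry no test. Against untreated 3 the median ratio of member widths was 0.930, and over all genes 0.977. By more than 1.5-fold (on width + 500 bp), 2 of 83 members were wider, Rpl22 and Rpl36a (3.61% of all genes). Rpl22 had no gene-end peak in untreated 3, and Rpl36a had 724 bp there and 4863 bp with I-BET. The 7 narrower members (8.43%; 6.98% of all genes) included Rpl13a, Rpl19, Rpl36, Rps3a1, Rps9 and Rps15a. Rps9 had 4093 bp untreated and 2151 bp with I-BET. Both shares are near those of the genome. With a -log10 q of at least 5, 9 members were wider and 13 narrower (4.14% and 6.6% of all genes), and at 1 covered length 9 and 11 (5.13% and 6.09%).

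To set lists of such different length on 1 footing, each was reduced to its strongest peaks by the authors' -log10 p until it covered 3.44 Mb. limma then compared log2(width + 500 bp) over the 906 genes with a mean width of at least 500 bp, of which 14 were members. With Benjamini-Hochberg adjustment limma called 0 genes at 0.05 in each of the 3 comparisons (0% of 906 genes). The smallest adjusted p by limma were 0.871 for RANKL against untreated, 0.957 for RANKL+I-BET against RANKL and 1 for RANKL+I-BET against untreated. Before adjustment 21, 15 and 13 genes had p under 0.05, and none of the 14 members did.

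In these shortened lists Rpl4, whose protein lines the exit tunnel, had no peak in the untreated libraries, 1803 and 1940 bp in RANKL 1 and 2 and none in RANKL 3. Its RANKL minus untreated difference was 1.497 ± 1.06 (SE) on the log2 scale, the highest of the members tested, with adjusted p = 0.871 by limma (Benjamini-Hochberg). With RANKL+I-BET against RANKL, Rps27a had the highest difference, 1.56 ± 1.01 (SE; limma adjusted p = 0.957), and it came from peaks of 1053 and 3604 bp in RANKL+I-BET 2 and 3 only. Of the other members named by this fit, the values lay nearer 0 in these comparisons: Rps19, Rpl27a, Rps18 and Rpl34 for RANKL against untreated, and Rpl13, Rps18, Rpl7l1, Rpl27a and Rpl35 for RANKL+I-BET against RANKL. For RANKL+I-BET against untreated the extremes were Rpl4 (1.82 ± 1.06 SE) and Rpl7l1 (-1.04 ± 1.01 SE), both with limma adjusted p = 1.0, with Rps19, Rps27a and Rpl35 between them.

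The direction of the members under RANKL depended on how the lists were scaled. In the lists as deposited, each centred on its median, 50 of 80 lay above 0 (median 0.12, all genes 0.40), and with no centring 80 of 80 lay above 0 (median 0.74, all genes 1.02). In the shortened lists 14 members passed the filter on width, 3 of them above and 10 below 0 (median -0.762, all genes -0.26). That is too few for a direction to be read from them. With all genes that had a peak in at least 1 shortened list, 12 of 72 members lay above 0 and 35 below. Over all genes 31.3% lay above 0 in that fit. limma called 0 of 9379 genes (0%) in the deposited and centred lists in each comparison, with 641, 312 and 107 genes at unadjusted p under 0.05. The largest member difference for RANKL against untreated there was that of Rps10, 1.18 ± 0.447 (SE; limma adjusted p = 0.717), with widths of 696 bp, no peak and 1676 bp untreated and 2481, 6442 and 2146 bp with RANKL. Rpl19 had the lowest for RANKL+I-BET against RANKL, -1.27 ± 0.551 (SE; limma adjusted p = 0.864). With its whole gene counted, its widths were 1575, 8958 and 1888 bp with RANKL and 1590, 1358 and 1844 bp with RANKL+I-BET, and the groups overlapped.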

How the data were processed

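H3K27ac peak lists of 10 libraries were used; the 10 input samples were not analysed here. The submitters' processing notes name FastQC, Bowtie2, MACS2 and the build mm10 (GRCm38); versions, settings, filters and the use of inputs are not given in the sources used here. Each list comes from 1 library. The deposited score is a whole number, 10 times the -log10 q. The deposited fold enrichment (column 7) is a ratio over the caller's local background. The deposited p and q values are on a -log10 scale. The lists have no header, so each column's meaning was read from the broad-peak layout and the values.

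Gene positions came from RefSeq (GRCm38.p6). For each gene and list the widest peak within 1 kb of a gene end was taken, with ties going to the higher fold. Groups and numbers came from the labels. Widths were compared by whether groups overlapped and with limma 3.58.1 (R 4.3.3; trended eBayes, the 3 replicated groups in 1 fit, threshold 0.05); Python 3.11.15, pandas 2.3.3, numpy 2.4.6 and matplotlib 3.10.9 were used for the rest. On simulated data for RANKL against untreated (906 genes), limma recovered 0%, 3% and 90.5% of planted log2 differences of 1, 2 and 4, so a log2 difference of 2, which is 4-fold, was rarely called.

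The members, the lists (stalk, Diamond-Blackfan genes, translation factors, markers) and the tests were chosen with earlier results of these data known. Named were a set of 16 members, those without a peak, the 5 widest and 5 narrowest and the 3 largest limma differences in each direction; other members are named as those of a count. The values of some members are not reported here. The 3 stalk genes had a gene-end peak in every library except Rplp1 in RANKL+I-BET 2. Alternatives were other windows, a minimum -log10 q of 5, the peak of highest -log10 p, lists of 1 covered length, other pseudocounts and filters, a replicate block and leaving out libraries.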

Additional observations from a re-analysis of the deposited data

How the results depend on the processing

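Of the 199 values recomputed under an alternative, 168 kept their size and 31 moved. Requiring a -log10 q of 5 left a mean of 6.67 untreated, 24.67 RANKL and 21.33 RANKL+I-BET members with a peak. Over all genes the shares in libraries 1, 2 and 3 were 1.27%, 0.5% and 7.9% untreated and 12.85%, 29.75% and 14.97% with RANKL. With RANKL+I-BET they were 11.75%, 3.21% and 8.61%. Lists of 1 covered length left means of 17.67, 6.33 and 32.0 members. RANKL+I-BET 2 set that length and was not cut, and RANKL+I-BET 1, 2 and 3 held 11, 68 and 17 members. Over all genes these RANKL+I-BET lists held 6.74%, 17.3% and 6.88%, and the RANKL lists 6.92%, 1.74% and 6.28%. Under these 2 settings the count wider with RANKL was 2 and 0 (1 narrower at 1 covered length), that narrower with RANKL+I-BET than RANKL was 1 and 0, and 1 member was wider with RANKL+I-BET than untreated at 1 covered length. I-BET against untreated 3 gave 9 wider under both, 1 wider with a 2.5 kb window, and 13 and 11 narrower. Without the libraries numbered 2, members narrower with RANKL were 2 (0.914% of all genes) and members wider with RANKL+I-BET than RANKL 9 (3.85%). Against untreated, RANKL+I-BET gave 22 wider and 4 narrower (13.1% and 1.44% of all genes). Leaving out 1 library gave means of 74 to 77 untreated, 78 to 79.5 RANKL and 73 to 78.5 RANKL+I-BET members with a peak, and mean widths of 1002.8 to 1461.2, 1843.5 to 2634.8 and 1233.5 to 1755.2 bp. It gave 22 to 56 wider and 0 to 1 narrower for RANKL against untreated, 0 to 1 wider and 18 to 41 narrower for RANKL+I-BET against RANKL, and 0 to 22 wider and 0 to 4 narrower against untreated. The all-gene shares beside the highest of these counts, and under the 2 settings, are given with each comparison above. The cause of these moves was not tested. limma called 0 genes in each comparison under every alternative run, those without a library included. With the replicate block limma also called 0 genes (32, 25 and 20 at unadjusted p under 0.05); in these lists of 1 covered length same-numbered libraries correlated at 0.009 to 0.207, and not every library correlated best with its own number. In the deposited, centred lists they correlated at 0.026 to 0.51 (0.405, 0.51 and 0.374 between RANKL and RANKL+I-BET), and every library correlated best with a library of its own number. There the replicate block again gave 0 calls (809, 440 and 133 genes at unadjusted p under 0.05, beside 641, 312 and 107 without it). The labels do not say what libraries of 1 number share. Counting the whole gene, and fitting the centred lists with the replicate block or without the libraries numbered 2, were chosen after seeing the data. Depth and caller settings are unknown, and the lengths of the lists limit how far widths can be compared.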
